A study of Homo sapiens with 6 samples.

Results

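The genes described here encode the HLA class I molecules and the proteins that load them with peptide. They were taken as all probe sets on the array that the platform annotation assigns to exactly 1 of HLA-B, HLA-C, HLA-E, HLA-F, HLA-G, B2M, TAP1, TAP2 and TAPBP. This gave 28 probe sets for 9 genes, of 54675 probe sets in all, and the choice used no measured value. Gene expression was measured on 6 Affymetrix arrays in MDA-MB-231, an established human breast cancer cell line that lacks the estrogen receptor. The cells were transfected with LSD1 siRNA (3 arrays) or control siRNA (3 arrays), described as biological replicates, and were collected for RNA on day 6, following 2 transfection rounds. The KDM1A gene encodes LSD1, an enzyme that takes methyl groups off lysines of histone H3. The question is what the loss of LSD1 does to the transcripts of the class I pathway. No agent other than the siRNA is named in the labels, and each group is the same single cell line, so the arrays do not sample different tumours.

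HLA class I molecules present short peptides from inside the cell to CD8 T cells, and some of them are read by receptors of natural killer cells. Each molecule consists of a heavy chain (HLA-B, HLA-C, HLA-E, HLA-F, HLA-G) and the light chain beta-2 microglobulin (B2M). Peptides are cut by the proteasome, pumped into the endoplasmic reticulum by the TAP1-TAP2 transporter and loaded with the help of tapasin (TAPBP). Most of these genes carry promoter elements that interferon regulatory factors and NF-kappaB are known to bind.

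RefSeq promoter windows (250 bases before to 50 bases after the annotated start site, build GRCh38.p14) were found for 8 of the 9 genes, all but HLA-E. A stretch of each window is shown, around the ISRE core matches for B2M, TAP1, TAP2 and TAPBP and at the same positions before the start site for the 4 heavy chain genes, because interferon-type letters are commonly described in these promoters. Capitals mark matches on either strand to the ISRE core (GAAA, any 2 bases, GAAA), to the shorter IRF motif (AANNGAAA), which overlaps the core's letters, and to the NF-kappaB consensus. They are reference letters and not alleles read from the cell line.
HLA-B, chr6:31357293-31357367, minus strand: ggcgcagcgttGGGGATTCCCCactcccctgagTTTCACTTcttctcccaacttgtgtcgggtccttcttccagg
HLA-C, chr6:31272206-31272280, minus strand: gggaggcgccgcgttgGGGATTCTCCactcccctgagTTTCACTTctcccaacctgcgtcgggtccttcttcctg
HLA-F, chr6:29723246-29723320, plus strand: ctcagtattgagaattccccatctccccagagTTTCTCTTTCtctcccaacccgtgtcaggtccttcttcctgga
HLA-G, chr6:29827637-29827711, plus strand: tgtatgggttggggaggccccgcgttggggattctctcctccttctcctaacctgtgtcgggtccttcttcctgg
B2M, chr15:44711348-44711413, plus strand: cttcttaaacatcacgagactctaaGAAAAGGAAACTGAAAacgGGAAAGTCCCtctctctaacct
TAP1, chr6:32853798-32853863, minus strand: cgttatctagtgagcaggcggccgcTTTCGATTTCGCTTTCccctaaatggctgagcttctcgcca
TAP2, chr6:32838763-32838822, minus strand: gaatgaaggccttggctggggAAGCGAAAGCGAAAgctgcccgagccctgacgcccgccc
TAPBP, chr6:33314079-33314123, minus strand: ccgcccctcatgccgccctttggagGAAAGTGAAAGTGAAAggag

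The windows differed in these letters. An ISRE core was present in the windows of HLA-F, B2M, TAP1, TAP2 and TAPBP, and 3.57% of all 35116 promoter windows held one. The windows of HLA-B and HLA-C held only the shorter IRF motif, with the same letters in both genes, and this motif was found in 22.8% of all windows. The HLA-G window shown, which is the one of its 3 that shares most letters with the HLA-B window, held neither. The NF-kappaB consensus matched in HLA-B, HLA-C, B2M, TAP1 and TAPBP (5.91% of all windows), but not in HLA-F, HLA-G or TAP2. The NF-kappaB matches of TAP1 and TAPBP lie outside the stretches printed above. The CCAAT box was found in the windows of the 4 heavy chain genes, B2M and TAP1 (34.6% of all windows). A match describes letters in the window and does not show a bound site.

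KDM1A was checked first. Its signal was 291, 184 and 228 on the LSD1 siRNA arrays, against 2540, 2493 and 2295 on the control siRNA arrays. This was 9.58% of the control mean, a log2 change of -3.32 ± 0.13 (SE; limma, Benjamini-Hochberg adjusted p = 1.46e-08). The deposited signals have a trimmed mean of 500.1 on each array. The 3'/5' signal ratio of the beta-actin control probe sets, a mark of RNA quality, was 1.74 on control siRNA array 1 and 1.33 to 1.43 on the other 5 arrays. Across the array the response was broad. Of 32747 probe sets above the filter on dim signals, 31.3% passed the test at an adjusted p of 0.05, 15.3% higher and 16.0% lower with LSD1 siRNA, and the median log2 change was -0.03. Changes are given as LSD1 siRNA minus control siRNA on the log2(signal + 15) scale, which understates the change of dim probe sets.

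Many class I and transporter probe sets were higher with LSD1 siRNA and none passed the test as lower. Of the 28 probe sets 26 were above the filter, and of these 14 rose, 0 fell and 12 did not pass by limma (0 were lower at an unadjusted p of 0.05 too). The shares to read this against are the 15.3% of all tested probe sets that were higher and the 16.0% that were lower. Sets of the same gene, and heavy chain sets of different genes, can bind the same RNA, so the 26 are not independent. In RNA from whole cultures, a change in the number of cells that carry a transcript and a change in its amount per cell cannot be told apart. The median log2 change of the 26 was 0.38, with a range of -0.19 to 0.73. All 3 LSD1 siRNA arrays lay above all 3 control siRNA arrays in 19 of the 26, a pattern seen in 20.8% of all tested probe sets (43.5% in either direction). Without control siRNA array 1, the array with the higher beta-actin ratio, 12 rose and 0 fell. The rises were unevenly spread, with 12 among the 17 heavy chain probe sets and 2 among the 9 tested probe sets of B2M, TAP1, TAP2 and TAPBP.

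**Figure D1:**
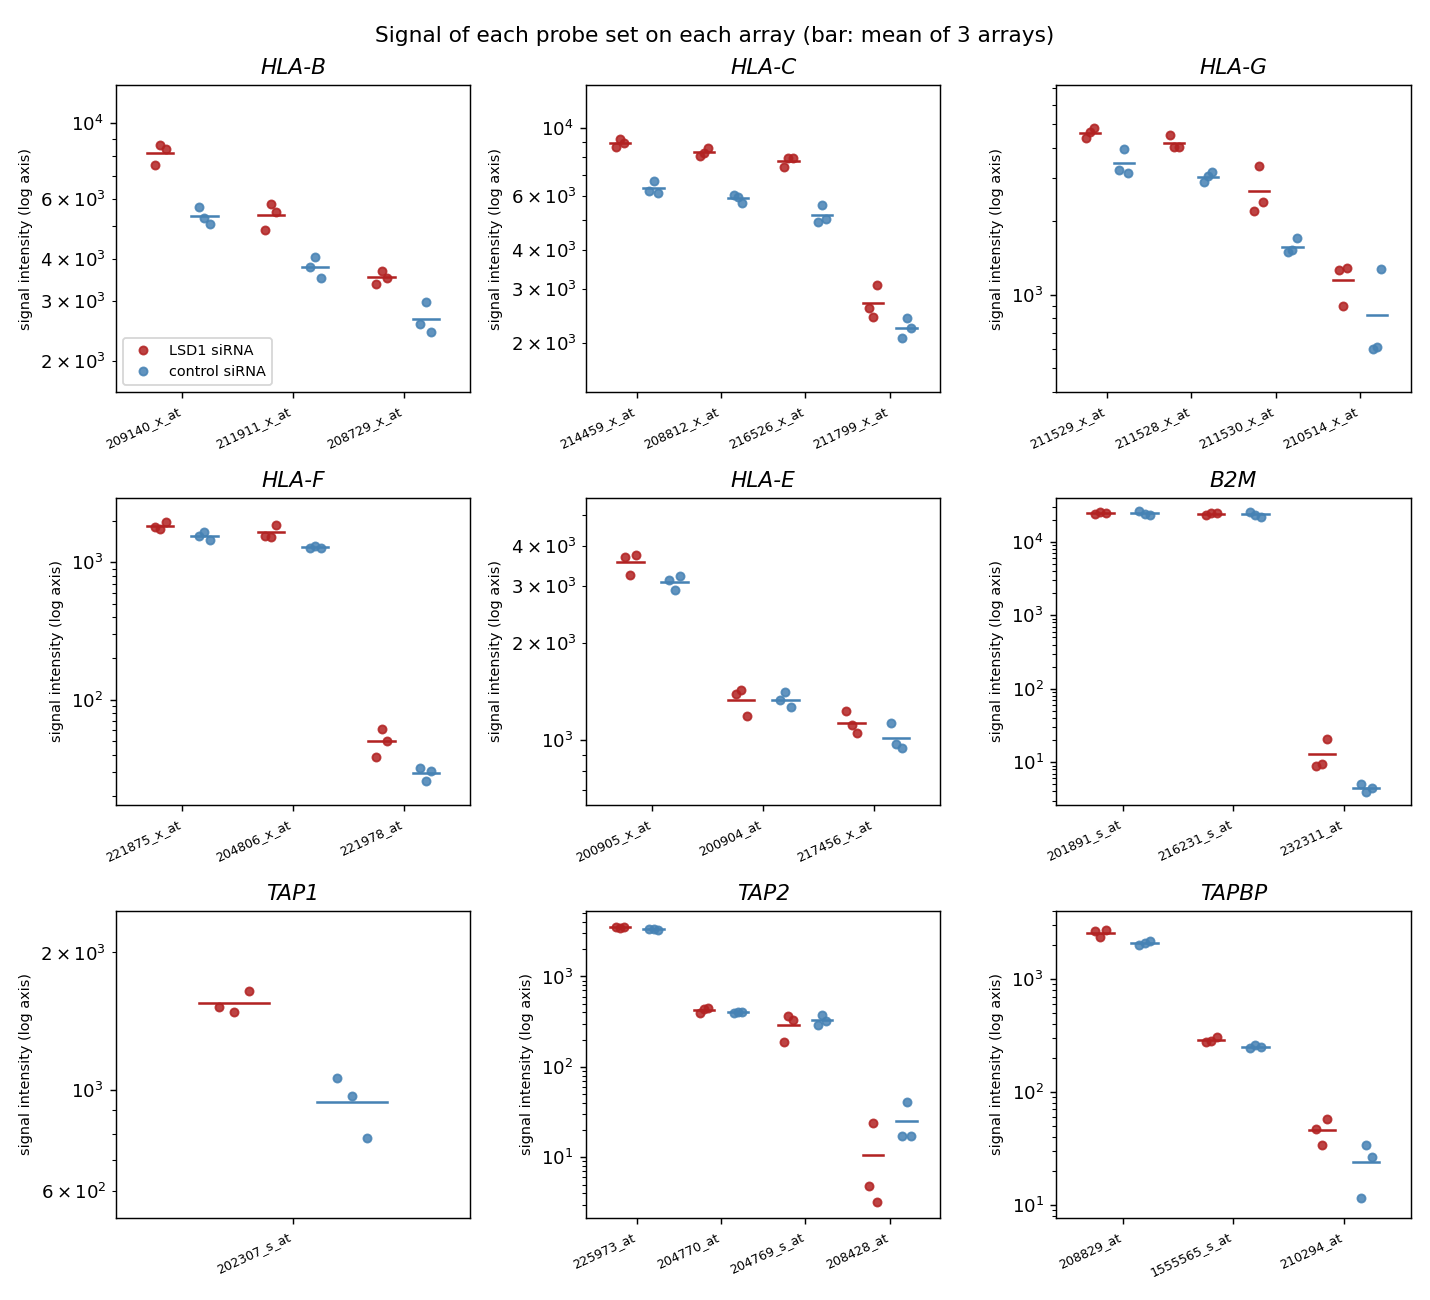
Signal intensity (log axis) of all 28 probe sets of the 9 genes on each of the 6 arrays, LSD1 siRNA in red at the left and control siRNA in blue at the right of each pair; points are arrays and bars are means of 3 arrays. The LSD1 siRNA points of TAP1 and of all 3 HLA-B probe sets sit above all control siRNA points, while those of the 2 bright B2M probe sets lie within the range of the control siRNA points.

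Of the 17 heavy chain probe sets 15 carry the x suffix, with which the manufacturer marks sets whose probes can also bind other transcripts. The heavy chain genes are close in sequence, and a signal of such a set can therefore hold RNA of another class I gene or of an HLA gene not named here. HLA-B, HLA-C and HLA-G have no other kind of probe set on this array. The heavy chain values below are those of the named probe sets, and the share that each gene contributes was not tested. Across the whole array the x suffix did not go with rises: 13.4% of 2924 tested x-suffix sets were higher, against 15.5% of 29823 other sets. These shares cover all genes and cannot show which transcripts the heavy chain sets bind.

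HLA-B encodes a classical heavy chain that presents peptide to CD8 T cells, and all 3 of its probe sets rose. The brightest, 209140_x_at, had signals of 7550, 8639 and 8396 with LSD1 siRNA, against 5691, 5285 and 5075 with control siRNA. The groups were well apart, and the LSD1 siRNA mean of 8195 ± 572 was 153% of the control mean of 5350 ± 313 (SD, n = 3 each; log2 change 0.61, SE 0.07, 95% interval 0.46 to 0.77, limma adjusted p = 5.23e-05). The probe set 211911_x_at gave 4846, 5804 and 5495, against 3780, 4035 and 3517 (log2 change 0.51, limma adjusted p = 0.000452). The dimmest, 208729_x_at, gave 3380, 3691 and 3518, against 2576, 2982 and 2433 (log2 change 0.41, limma adjusted p = 0.00209). In each case the lowest LSD1 siRNA array was above the highest control siRNA array.

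HLA-C encodes the other classical heavy chain here, which is also a ligand of inhibitory killer cell receptors, and all 4 of its probe sets rose. The signals of 214459_x_at were 8618, 9158 and 8929 with LSD1 siRNA, against 6239, 6718 and 6118 with control siRNA, which is 140% of the control mean (8902 ± 271 against 6358 ± 317, SD, n = 3 each; log2 change 0.49, SE 0.06, limma adjusted p = 0.000112). The probe set 208812_x_at changed by 0.49 with signals of 8071, 8274 and 8569, against 6032, 5962 and 5697 (limma adjusted p = 7.01e-05). The groups of both sets were clearly apart, as were those of the next. For 216526_x_at the signals were 7472, 7969 and 7946, against 4933, 5612 and 5073, and the log2 change was 0.58 (limma adjusted p = 4.89e-05). The fourth set, 211799_x_at, was dimmer and its groups nearly touched, with 2594, 2436 and 3090 against 2084, 2411 and 2243. Its log2 change of 0.26 passed narrowly (limma adjusted p = 0.0470) and lost the call in 7 of 14 alternative settings, 4 of which left out 1 array: 0.21 without control siRNA array 1, 0.26 without control siRNA array 3, 0.29 without LSD1 siRNA array 1 and 0.16 without LSD1 siRNA array 3.

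HLA-G encodes a heavy chain known mainly from placental trophoblast, and 3 of its 4 probe sets rose. The signals of 211529_x_at were 4367, 4649 and 4818 with LSD1 siRNA, against 3234, 3946 and 3164 with control siRNA (log2 change 0.42, SE 0.09, limma adjusted p = 0.00251). Those of 211528_x_at were 4516, 4014 and 4017, against 2898, 3070 and 3172 (log2 change 0.45, limma adjusted p = 0.000392). The groups of both sets do not overlap. The largest log2 change among the heavy chain sets, 0.73 ± 0.13 (SE), was that of 211530_x_at, with 2204, 3358 and 2391 against 1491, 1519 and 1708 (limma adjusted p = 0.00106). The spread of its LSD1 siRNA arrays was wide (SD 619). The groups of 210514_x_at overlapped, since control siRNA array 3 at 1277 lay with the LSD1 siRNA arrays at 1264, 902 and 1282, and the other control siRNA arrays were at 599 and 611. Its log2 change of 0.54 (95% interval 0.02 to 1.06) did not pass (limma adjusted p = 0.112), and it was 0.89 without control siRNA array 3 (limma adjusted p = 0.000608), 0.35 without control siRNA array 1 and 0.37 without control siRNA array 2 (limma adjusted p = 0.340 each). All 4 HLA-G sets carry the x suffix, so none of these signals can be assigned to HLA-G alone.

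HLA-F, a heavy chain that reaches the cell surface in part without peptide, rose in its 2 x-suffix sets. The signals of 204806_x_at were 1549, 1534 and 1875 with LSD1 siRNA, against 1265, 1303 and 1273 with control siRNA (log2 change 0.36, limma adjusted p = 0.00692, and 0.0552 without an intensity trend). Those of 221875_x_at were 1814, 1748 and 1961, against 1559, 1668 and 1459 (log2 change 0.24, limma adjusted p = 0.0347). The call of 221875_x_at was lost in 6 of 14 alternative settings, with a log2 change of 0.23 without control siRNA array 1, 0.19 without control siRNA array 3, 0.25 without LSD1 siRNA array 1 and 0.19 without LSD1 siRNA array 3. The third set, 221978_at, has no x suffix and was dim, at 38.3, 61.7 and 50.1 against 32.2, 25.8 and 30.5. Its LSD1 siRNA arrays were all higher, but the change of 0.53 (95% interval -0.10 to 1.17) did not pass (limma adjusted p = 0.198).

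HLA-E presents signal peptides of other class I chains to natural killer cell receptors, and none of its 3 probe sets passed the test. The set without the x suffix, 200904_at, had signals of 1388, 1427 and 1185 with LSD1 siRNA, against 1332, 1409 and 1269 with control siRNA. The groups overlapped fully, and the log2 change was -0.01 (95% interval -0.19 to 0.18, limma adjusted p = 0.965), an interval that does not reach the changes of the HLA-B sets. The brighter set 200905_x_at gave 3704, 3259 and 3767, against 3134, 2920 and 3239. Its groups did not overlap and its log2 change of 0.21 (95% interval 0.04 to 0.37) narrowly missed the threshold (limma adjusted p = 0.0552). It passed in 6 of 14 alternative settings, among them without control siRNA array 3 (0.24, limma adjusted p = 0.0389) and without LSD1 siRNA array 2 (0.27, limma adjusted p = 0.0282). The last set, 217456_x_at, gave 1229, 1117 and 1051, against 1134, 972 and 944 (log2 change 0.16, 95% interval -0.05 to 0.36). Its groups overlapped.

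The x-suffix sets of HLA-E were set against its other set in pairs picked after their values were seen. The log2 change of 200905_x_at exceeded that of 200904_at by 0.21 (exact two-sided permutation test over arrays, p = 0.3) and that of 217456_x_at exceeded it by 0.16 (p = 0.2, exact). With 3 against 3 arrays the smallest possible p is 0.1. The test therefore cannot reach 0.05, and a difference between these sets was not shown. Among the heavy chain sets 12 of 15 with the x suffix rose, while 0 of the 2 without it did by limma (0 of the 2 also at an unadjusted p of 0.05), and these 2 sets stand for HLA-E and HLA-F only.

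B2M, the light chain that pairs with the class I heavy chains, was among the brightest transcripts on the array and did not pass the test. The signals of 201891_s_at were 24106, 25961 and 25179 with LSD1 siRNA, against 26655, 24132 and 22988 with control siRNA. The groups overlapped, with means of 25082 ± 932 and 24592 ± 1876 (SD, n = 3 each), and the log2 change was 0.03 (95% interval -0.13 to 0.19, limma adjusted p = 0.794). The second set, 216231_s_at, gave 23411, 25118 and 24589, against 25734, 23635 and 21631 (log2 change 0.05, 95% interval -0.12 to 0.21, limma adjusted p = 0.698). After quantile normalization both changed by 0.13 and passed (limma adjusted p = 0.0220 and 0.0190). The third set, 232311_at, was below the filter, at 8.89, 9.49 and 20.5 against 4.99, 3.91 and 4.40.

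**Figure D2:**
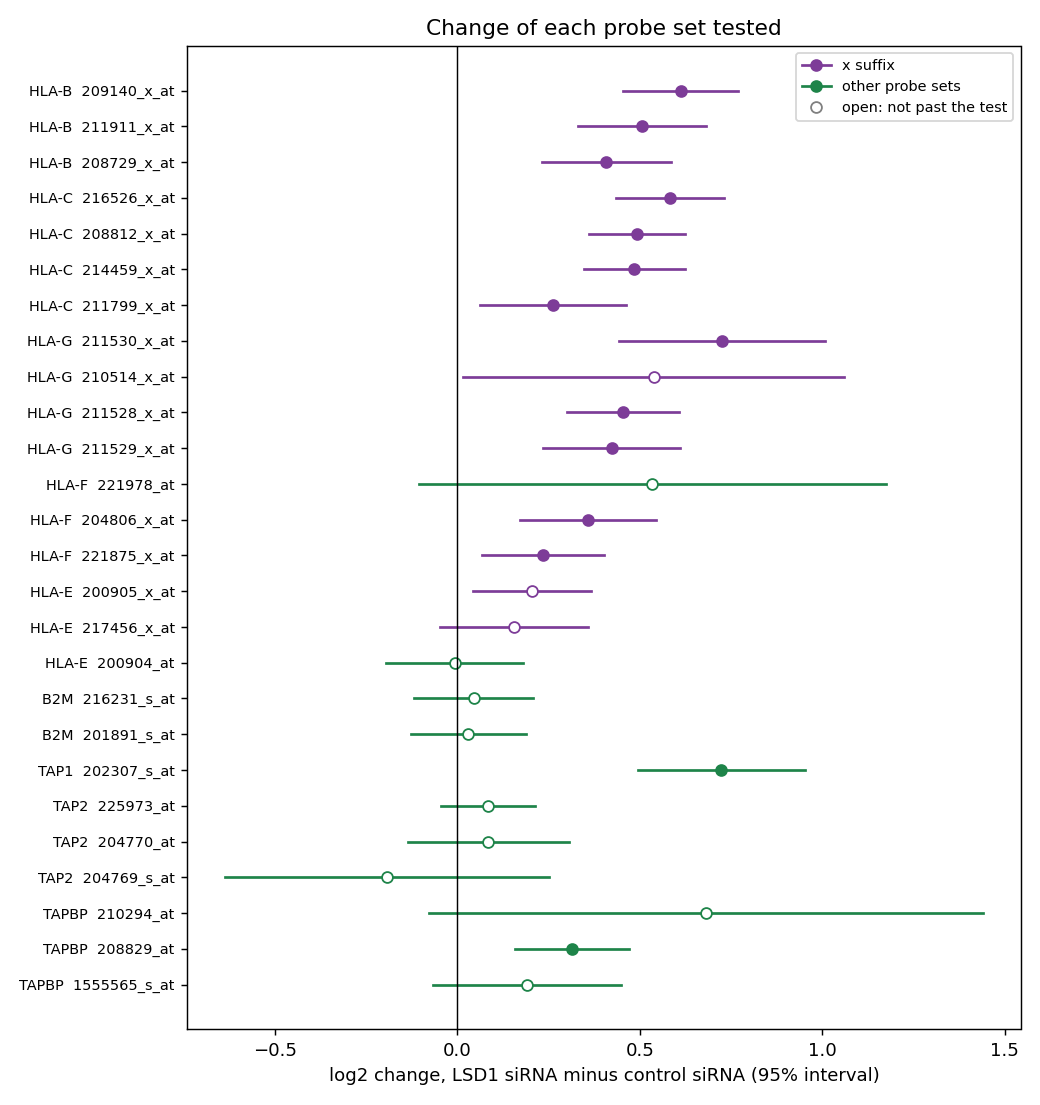
Log2 change, LSD1 siRNA minus control siRNA, of the 26 tested probe sets with 95% intervals; purple marks the x suffix, green other sets, and open circles did not pass at an adjusted p of 0.05. The HLA-B and HLA-C sets lie between 0.26 and 0.61, the B2M and TAP2 intervals include 0, and TAP1 at 0.72 is the highest set without the x suffix.

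TAP1 and TAP2 together form the peptide transporter and their genes lie close together in the class II region of chromosome 6. TAP1 has 1 probe set, 202307_s_at, which rose to signals of 1521, 1478 and 1648 with LSD1 siRNA, against 1060, 970 and 784 with control siRNA. The groups were far apart, and the LSD1 siRNA mean of 1549 ± 88.3 was 165% of the control mean of 938 ± 141 (SD, n = 3 each; log2 change 0.72, SE 0.10, 95% interval 0.50 to 0.95, limma adjusted p = 0.000233). The call stood in all 14 alternative settings, between 0.60 and 0.82. This set carries the s suffix, not the x suffix, and which transcripts it binds was not tested.

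None of the TAP2 probe sets passed. The brightest, 225973_at, was 3500, 3476 and 3566 with LSD1 siRNA, against 3340, 3335 and 3261 with control siRNA. Its arrays agreed closely and its groups did not overlap, but the difference was small (log2 change 0.09, 95% interval -0.04 to 0.21, limma adjusted p = 0.315). The set 204770_at gave 393, 438 and 450, against 393, 401 and 409 (log2 change 0.08, 95% interval -0.14 to 0.31). The set 204769_s_at gave 189, 364 and 326, against 291, 371 and 318, a log2 change of -0.19 (95% interval -0.64 to 0.25) in which LSD1 siRNA array 1 was low. The sign turned to 0.08 without that array, and the change was -0.37 without LSD1 siRNA array 2, neither past the test. The set 208428_at was below the filter, at 4.78, 24.2 and 3.21 against 17.0, 41.3 and 17.3.

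TAPBP encodes tapasin, which bridges the transporter and the empty class I molecule. Its bright set 208829_at rose, with 2685, 2390 and 2706 under LSD1 siRNA, against 1997, 2083 and 2159 under control siRNA. The groups did not overlap and the LSD1 siRNA mean was 125% of the control mean (log2 change 0.32, SE 0.07, limma adjusted p = 0.00524), a call narrowly missed without an intensity trend. The other sets did not pass, although their LSD1 siRNA arrays were all higher. They were 1555565_s_at at 275, 283 and 309 against 244, 261 and 248 (log2 change 0.19, 95% interval -0.07 to 0.45), and the dim 210294_at at 46.6, 34.0 and 57.8 against 11.4, 33.9 and 26.2 (log2 change 0.68, 95% interval -0.08 to 1.44). The control siRNA mean of 210294_at, 23.9, lies below the filter signal of 28.0, so it is among the 26 tested sets and the 19 without overlap only through its LSD1 siRNA arrays.

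Differences between members were taken on each array as a difference of log2 values, for pairs also picked after their values were seen. The log2 change of TAP1 exceeded that of TAP2 (225973_at) by 0.64. That of HLA-B (209140_x_at) exceeded that of B2M (201891_s_at) by 0.58, and that of HLA-C (214459_x_at) exceeded it by 0.45. In all 3 pairs the LSD1 siRNA and control siRNA arrays did not overlap. The exact two-sided permutation p was 0.1 each, the smallest that 3 against 3 arrays allow. It was 0.167 after Benjamini-Hochberg adjustment over the 5 pairs compared. This test cannot reach 0.05 with so few arrays, so it cannot decide on these differences.

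The other genes of the pathway were read from 1 probe set a gene, in a fit over 13822 genes of which 41.0% passed, 19.8% higher and 21.3% lower, with a median log2 change of -0.02. On this footing 5 of the 9 class I and transporter genes rose (HLA-B, HLA-C, HLA-G, TAP1 and TAPBP) and 0 fell, and their median log2 change was 0.42. HLA-E and HLA-F are represented there by their sets without the x suffix. HLA-B, HLA-C and HLA-G are read from x-suffix sets, so their calls may rest in part on the same RNA. The share of each gene was not tested. Of 50 tested genes on 5 related lists, 17 rose and 6 fell. FCGRT, among the 17, and HLA-DPA1, which did not pass, were above the filter only through their LSD1 siRNA arrays.

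**Figure D3:**
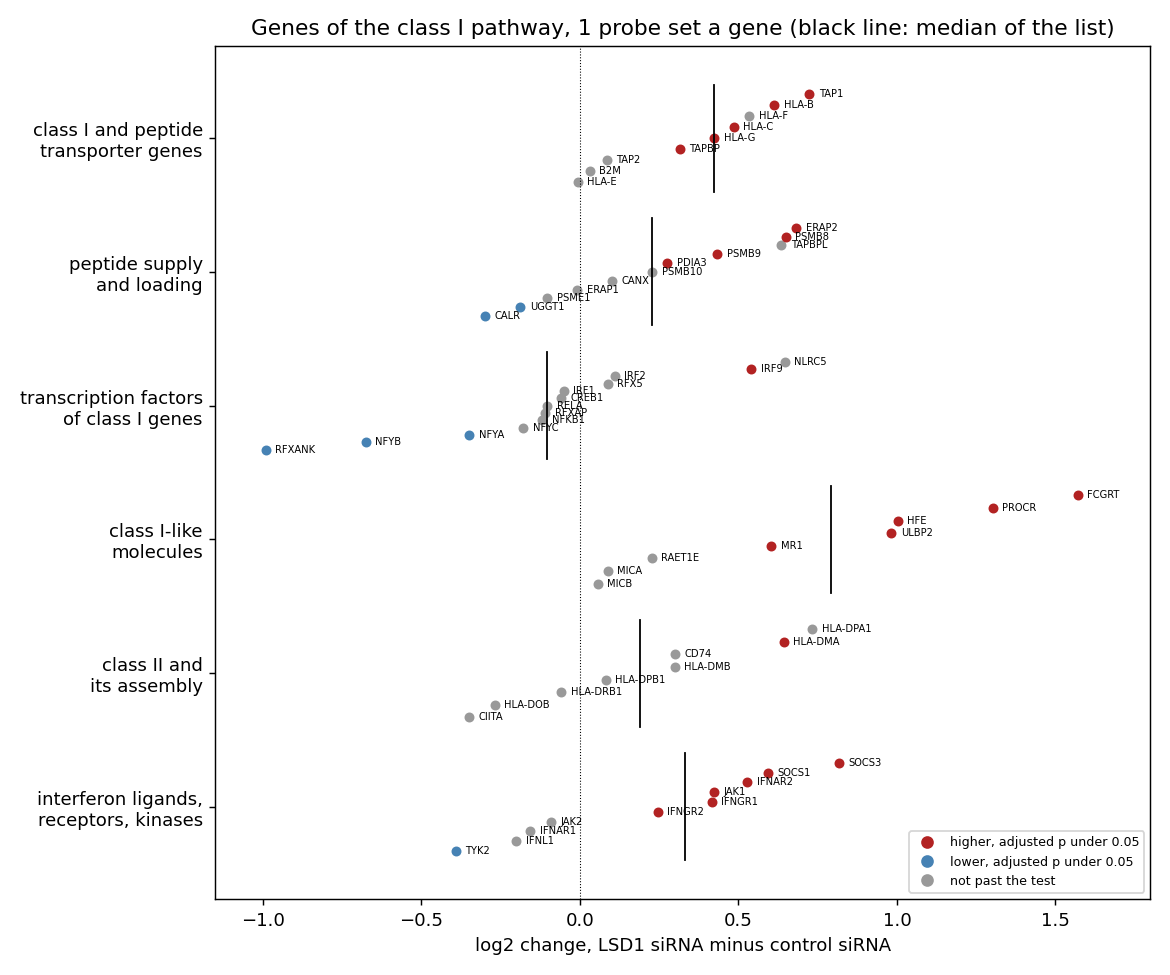
Log2 change, LSD1 siRNA minus control siRNA, of the tested genes of the class I pathway and of related lists, 1 probe set a gene; red rose, blue fell and grey did not pass, and the black line is the median of each list. The median is 0.42 for the class I and transporter genes, 0.23 for peptide supply and loading, -0.10 for the transcription factors and 0.79 for the class I-like molecules. The last of these medians includes FCGRT, which was above the filter only through its LSD1 siRNA arrays.

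Among the genes that supply and load peptide, 4 of 11 tested rose and 2 fell, with a median log2 change of 0.23. Over all tested genes 19.8% were higher and 21.3% lower, and the falls of this list were near the latter share. PSMB8, a catalytic subunit of the immunoproteasome, rose to signals of 1833, 1712 and 1728 with LSD1 siRNA, against 1083, 1194 and 1072 with control siRNA (log2 change 0.65, limma adjusted p = 2.13e-05). PSMB9, another such subunit encoded beside TAP1, was 1121, 1050 and 1100, against 864, 784 and 764 (log2 change 0.43, limma adjusted p = 0.000800). The groups of both genes were apart. ERAP2, which trims peptides in the endoplasmic reticulum, rose by 0.68 (280, 224 and 314 against 135, 179 and 178, limma adjusted p = 0.00604), and PDIA3, a disulfide isomerase of the loading complex, rose by 0.28 (limma adjusted p = 0.00222). The remaining immunoproteasome subunit, PSMB10, changed by 0.23 and the trimming enzyme ERAP1 by -0.01, and neither passed.

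Both falls on that list were narrow. The chaperone CALR fell by 0.30 on the log2 scale (328, 398 and 378 against 421, 466 and 482, limma adjusted p = 0.0471) in a call lost in 10 of 16 alternative settings, among them those without control siRNA array 2 or 3 and without LSD1 siRNA array 1 or 3, with log2 changes of -0.32 to -0.22. Its brighter x-suffix sets changed by -0.07 and 0.21. The folding sensor UGGT1 fell by 0.19 on the log2 scale (limma adjusted p = 0.0366), and its call was lost in 7 of 16 settings, among them each that left out 1 array other than control siRNA array 3, with log2 changes of -0.21 to -0.15.

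Of 13 tested transcription factors of class I genes, 1 rose and 3 fell, and the median log2 change was -0.10. IRF9, the DNA-binding subunit of an interferon-activated complex, rose to 454, 476 and 376 with LSD1 siRNA, against 253, 348 and 285 with control siRNA (log2 change 0.54, limma adjusted p = 0.00780). The share of falls is close to the 21.3% of all tested genes that were lower. RFXANK, a subunit of the RFX complex that binds the promoters' X box, was 600, 617 and 543, against 1153, 1288 and 1106 (log2 change -0.99, limma adjusted p = 4.10e-06), and of the subunits of the CCAAT-binding factor NF-Y, NFYB changed by -0.68 (limma adjusted p = 4.09e-05) and NFYA by -0.35 (limma adjusted p = 0.00380, and 0.0811 for the mean of its probe sets). The other subunits of these complexes did not pass, with log2 changes of 0.09 for RFX5, -0.11 for RFXAP and -0.18 for NFYC. NLRC5, the transactivator of class I genes, was dim but higher on all LSD1 siRNA arrays, at 107, 63.6 and 94.5 against 59.9, 32.3 and 62.3. Its log2 change of 0.65 did not pass (95% interval 0.03 to 1.27, limma adjusted p = 0.0911). IRF1, the interferon gamma induced activator of these promoters, overlapped between groups at 495, 505 and 472 against 461, 598 and 478 (log2 change -0.05, limma adjusted p = 0.750).

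Class I-like molecules, which share the heavy chain fold but have other tasks, rose in 5 of 8 tested genes and fell in none by limma (0 of 8 at an unadjusted p of 0.05), with a median log2 change of 0.79. Among all tested genes 19.8% were higher and 21.3% lower. PROCR, the endothelial receptor of protein C, was 3629, 4056 and 3927 with LSD1 siRNA, against 1457, 1603 and 1624 with control siRNA (log2 change 1.30, limma adjusted p = 1.03e-07). ULBP2, a ligand of the activating killer cell receptor NKG2D, was 3011, 3145 and 3030, against 1419, 1599 and 1614 (log2 change 0.98, limma adjusted p = 7.32e-07). HFE, which governs iron uptake, rose to 203% of its control mean (limma adjusted p = 0.000158), and to 159% in its brightest set, which carries the x suffix (log2 change 0.65). FCGRT, the heavy chain of the neonatal Fc receptor, was dim, at 131, 157 and 51.8 against 24.7, 27.6 and 22.8 (log2 change 1.57, limma adjusted p = 0.00343). Its control siRNA arrays lie below the filter signal of 28.0, so it entered the test through its LSD1 siRNA arrays, and its call is given as a description. Its log2 change was 0.97 with a constant of 60. Of the other 7 genes, 4 rose. The list median of 0.79 includes FCGRT and is likewise only a description. MR1, which presents vitamin metabolites, rose by 0.60 (limma adjusted p = 0.0102) but by only 0.19 for the mean of its probe sets (limma adjusted p = 0.472). The further NKG2D ligands MICA and MICB changed by 0.09 and 0.06 and did not pass.

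Class II genes were dim. Of 12 listed, 8 were above the filter, and 1 rose, with a median log2 change of 0.19. The share of all tested genes that were higher was 19.8%. HLA-DPA1 had a control siRNA mean of 26.0, below the filter signal of 28.0. It is among the 8, and in this median, only through its LSD1 siRNA arrays (log2 change 0.73, limma adjusted p = 0.111, not past the test). HLA-DMA, which edits the peptides of class II molecules, was 221, 221 and 200 with LSD1 siRNA, against 125, 145 and 126 with control siRNA (log2 change 0.64, limma adjusted p = 0.00440). HLA-DRA, a class II chain named after its values were seen, was below the filter and not tested, with all LSD1 siRNA arrays higher at 53.8, 57.0 and 69.9 against 17.7, 6.44 and 4.02. The class II transactivator CIITA changed by -0.35 (95% interval -1.42 to 0.72, limma adjusted p = 0.614).

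The list of interferon ligands, receptors and kinases also holds the feedback inhibitors SOCS1 and SOCS3. Of its 10 tested genes 6 rose, SOCS1 and SOCS3 among them, and 1 fell. The median log2 change of 0.33 includes both inhibitors and is not that of the ligands, receptors and kinases alone. In the whole fit 19.8% of genes were higher and 21.3% lower. The feedback inhibitor SOCS3 was 2805, 2503 and 2688 with LSD1 siRNA, against 1385, 1512 and 1626 with control siRNA (log2 change 0.82, limma adjusted p = 5.81e-06, and 0.43 with an adjusted p of 0.0494 for the mean of its probe sets). The interferon gamma receptor chains IFNGR1 and IFNGR2 rose by 0.42 and 0.25 (limma adjusted p = 0.000227 and 0.00900). The receptor kinase JAK1 rose by 0.42 (limma adjusted p = 0.000168, and 0.125 for the mean of its probe sets), and TYK2, another receptor kinase, fell by 0.39 on the log2 scale (limma adjusted p = 0.00168). The other rises, named after their values were seen, were IFNAR2 at 0.53 and SOCS1 at 0.59 (limma adjusted p = 0.0157 and 0.0445). The direction of SOCS1 turned with the mean of its probe sets (-0.15, not past the test). The change of IFNAR2 was 0.26 in its brightest set, which carries the x suffix. Its call was lost without an intensity trend, without LSD1 siRNA array 1 (0.44) and without LSD1 siRNA array 2 (0.43). The SOCS1 call was lost without any 1 of the arrays other than control siRNA array 1, with log2 changes of 0.51 to 0.67. IFNAR1, the chain that pairs with IFNAR2, was lower on all LSD1 siRNA arrays but did not pass (log2 change -0.16, limma adjusted p = 0.219). Its set 225669_at fell in the fit over probe sets (log2 change -0.66, limma adjusted p = 0.00342). The IFNAR1 sets 204191_at and 236478_at changed by 0.28 and 0.06 and did not pass. The interferon genes IFNB1, IFNG and IFNE were below the filter in these cells.

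Leukocytes also carry class I molecules in large amounts, so their markers were read as well. Of 11 markers with a probe set, 7 were above the filter and 1, LAPTM5, rose (log2 change 1.20), where 19.8% of all tested genes were higher. The dim CD2 and CD3D were also higher on all LSD1 siRNA arrays but did not pass (log2 change 0.68 and 0.85, limma adjusted p = 0.103 and 0.0819). The groups of the other tested markers overlapped. The summed marker signal was 7832 to 7874 with LSD1 siRNA, against 3406 to 3812 with control siRNA, and without LAPTM5 it was 392 to 534 against 385 to 447. The pan-leukocyte marker PTPRC and the markers MS4A1, CD163 and NKG7 were below the filter. The part of these markers in the class I result was not tested. The line's markers VIM and CD44 were bright (mean signals of 27438 and 12289 with LSD1 siRNA, against 32798 and 13093 with control siRNA). ESR1 was dim (75.7 against 59.1), as was PGR (29.5 against 60.7, log2 change -0.84, limma adjusted p = 0.0789). EPCAM, which had been listed as low in this line, was at 1644 against 1658 and so went against that entry.

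The genes whose pattern over the 6 arrays was most like the mean of the 9 genes were PSMA1, ST13, XPR1, MTMR9 and PSMC2. Likeness was the root mean square difference of the mean-centred log2 values, which was 0.0196, 0.0197, 0.0198, 0.0223 and 0.0242 in that order. The mean profile of the 9 genes was 0.12, 0.22 and 0.19 with LSD1 siRNA, against -0.14, -0.15 and -0.24 with control siRNA. PSMA1, for example, was 12607, 13305 and 12913 with LSD1 siRNA, against 10287, 10586 and 9831 with control siRNA. These genes were chosen for this likeness, so their values are a description and were not tested.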

How the data were processed

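Each of the 6 arrays was hybridised with material from 2.5 ug of total RNA, and the authors deposited its intensity values, on a linear scale, for 54675 probe sets. The submitters' processing notes name MAS5, GCOS and version 1.1 of Affymetrix Expression Console, without their roles. The arrays were already on a common scale, so a change in total RNA per cell cannot be seen, and no detection calls were used. Genes were named from the platform annotation: 41091 probe sets have 1 symbol, 1801 have several (0 of these hold a gene described here) while 11777 are absent from it. The RefSeq table used for names held 41043 of those with 1 symbol.

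Values were taken as log2(signal + 15), 15 being the 25th percentile of all signals. The test took probe sets whose mean log2 value passed the 40th percentile (a signal of about 28.0), without the 62 control sets. LSD1 siRNA and control siRNA arrays were fitted in limma 3.58.1 under R 4.3.3 (lmFit, eBayes with an intensity trend, two-sided) without a covariate, over 32747 probe sets. A second fit used 13822 genes, each as its brightest set, with x-suffix sets only where a gene had no other. Benjamini-Hochberg adjustment at 0.05 ran over all features of each fit. Adjusted p-values of the 9 genes' probe sets are from the first fit and those of other genes from the second. The fit over probe sets is named where it gave another gene's adjusted p. With 3 arrays a group, the number of arrays limits the precision, and p-values measure the spread between these arrays. The fit was also run on simulated data with independent noise and few changed genes. These arrays differ from that setting, so the run is no check of the calls above.

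The genes and lists were chosen with earlier results of these data known. Named are KDM1A, every probe set of the 9 genes, from each list up to 5 genes past the threshold in order of p, those that changed against the majority of their list, the 5 genes most like the 9, and NLRC5, IRF1, CIITA, PSMB8 and PSMB9 whatever their result. Some listed genes are not reported here. Other list genes were named after their values were seen, as were the 5 pairs compared. Promoter letters are from RefSeq (GRCh38.p14). Alternatives covered the constant, the filter, the scaling, the variance model, the probe set that stands for a gene, a replicate block and leaving out each array. Figures were drawn with matplotlib 3.10.9.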

Additional observations from a re-analysis of the deposited data

How the results depend on the processing

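The count of class I and transporter probe sets that rose was 14. It was 13 with a constant of 1, 14 with a constant of 60, 12 without the filter, 15 with the filter at the 60th percentile, 17 after quantile normalization, 15 after median centring, 10 without the intensity trend and 12 to 15 when 1 array was left out, and 0 fell in any of these. The 5 genes that rose became 6 after quantile normalization, without the trend or with the mean of all probe sets, and 7 with the brightest set whatever its suffix. In the last setting HLA-E is read from its x-suffix set, and its log2 change was 0.21 (limma adjusted p = 0.0387) in place of -0.01. With the mean of all probe sets SOCS1 changed by -0.15 (adjusted p = 0.646), and the 23 called list genes became 17. Class II calls numbered 2 with a constant of 60 and without the filter, and 1 to 2 when 1 array was left out, as did leukocyte marker calls. KDM1A changed by -3.48 to -3.10 over its 16 alternatives. Same-numbered arrays of the groups did not deviate together (correlations of 0.028, 0.0039 and 0.024), so the numbers are not treated as pairs. With the replicate block 16 probe sets and 5 of the 9 genes rose, and the list genes called numbered 23. Arrays hold no read depth. Dim sets such as HLA-F 221978_at and TAPBP 210294_at have wide intervals, and heavy chain signals cannot be assigned to single genes.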
